A study of Mus musculus with 31 samples.

Results

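The last step of methylation in the growing mouse oocyte was examined by comparing Type7 oocytes, taken from antral follicles, with Type5b oocytes, taken from secondary follicles. The libraries were chosen by their titles alone: 3 Type7 and 3 Type5b libraries, 6 of the 31 in the series. All 6 came from B6D2F1 mice (C57BL/6 x DBA/2), with no further genotype or treatment given and no age given. Another label names embryo stages for these libraries (2-cell for Type7, trophectoderm or zygote for Type5b); it goes against the titles and the tissue field and was not used. Methylation was measured by reduced representation bisulfite sequencing, in which MspI cuts DNA at CCGG and bisulfite turns unmethylated cytosine into uracil. The labels do not tell how many oocytes a library held or whether the 3 libraries of a stage are independent animals. The exact permutation p-values below rest on the values of these 6 libraries. The p-values of single tiles rest on how much libraries vary within a stage, estimated over all 31 libraries. In both, that variation may be technical.

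Oocytes begin growth with largely unmethylated DNA and are methylated de novo by DNMT3A and its partner DNMT3L while they are arrested and not dividing. Methylation is laid down mainly over transcribed gene bodies, and CpG islands acquire it when they lie within a transcribed unit. The promoters and control regions of maternally imprinted genes are methylated in the same window, and that methylation later silences the maternal copy in the embryo.

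Levels were computed in 100-bp tiles that held at least 3 CpG sites with at least 5 reads each, as methylated reads over all reads. Reads over CpG sites ran from 12070769 to 38633220 in the Type7 libraries and from 21578478 to 38713327 in the Type5b libraries, and the median was 10 to 20 reads per site in Type7 and 16 to 21 in Type5b. Type7 replicate 3 was the shallowest library. The level of CpG-dense X-linked tiles minus that of CpG-dense autosomal tiles, which DNA of cells with an inactive X raises, was -5.71 to -3.97 points in Type7 and -6.70 to -2.58 points in Type5b; it was above 0 in 9 libraries, none of them of these stages and 2 of them Type6 libraries.

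The sequences of 4 promoters show what the comparison turns on. The measured tiles of Sgpp2 and Tsr1 were almost fully methylated in Type7. In Type5b they were unmethylated (Sgpp2) or little methylated in 2 of 3 libraries (Tsr1). Dnmt1 was the one of 2 maintenance genes with a tested promoter tile that passed the test. Snrpn is an imprinted promoter whose tile was already highly methylated in Type5b. The sequences are RefSeq windows, 5′ to 3′, from 250 bases before to 50 after the annotated start. Capitals mark the CpG sites that were listed in the files and lie in the tiles described below.
Sgpp2 promoter, GRCm38.p6 chr1:78310096-78310395, plus strand: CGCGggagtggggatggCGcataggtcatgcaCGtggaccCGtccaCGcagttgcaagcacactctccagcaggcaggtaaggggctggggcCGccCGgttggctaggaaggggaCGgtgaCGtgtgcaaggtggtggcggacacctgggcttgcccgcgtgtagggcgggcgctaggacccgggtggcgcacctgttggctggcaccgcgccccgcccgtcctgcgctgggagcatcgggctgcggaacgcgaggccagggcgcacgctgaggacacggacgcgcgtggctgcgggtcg
Tsr1 promoter, GRCm38.p6 chr11:74897830-74898129, plus strand: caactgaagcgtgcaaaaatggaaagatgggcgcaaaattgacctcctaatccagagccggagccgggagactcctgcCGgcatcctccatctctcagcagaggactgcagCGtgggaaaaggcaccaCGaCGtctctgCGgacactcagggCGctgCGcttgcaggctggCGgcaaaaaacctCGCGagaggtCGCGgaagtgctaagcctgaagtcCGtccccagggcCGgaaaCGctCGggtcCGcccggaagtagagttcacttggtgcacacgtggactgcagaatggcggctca
Dnmt1 promoter, GRCm38.p6 chr9:20952574-20952873, minus strand: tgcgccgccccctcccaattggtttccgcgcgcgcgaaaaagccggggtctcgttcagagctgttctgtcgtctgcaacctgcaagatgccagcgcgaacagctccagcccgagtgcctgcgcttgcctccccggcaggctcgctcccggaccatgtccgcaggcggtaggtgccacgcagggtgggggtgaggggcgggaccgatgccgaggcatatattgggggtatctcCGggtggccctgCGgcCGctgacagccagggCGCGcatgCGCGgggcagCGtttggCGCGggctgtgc
Snrpn promoter, GRCm38.p6 chr7:60005150-60005449, minus strand: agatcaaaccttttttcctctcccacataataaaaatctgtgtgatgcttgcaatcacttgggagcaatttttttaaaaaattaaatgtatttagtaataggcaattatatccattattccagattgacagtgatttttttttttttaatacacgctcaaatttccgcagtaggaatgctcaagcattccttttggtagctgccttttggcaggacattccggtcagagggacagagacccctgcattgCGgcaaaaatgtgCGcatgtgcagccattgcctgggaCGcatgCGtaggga

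Type7 oocytes had more fully methylated tiles, fewer partly methylated tiles and nearly as many unmethylated tiles as Type5b oocytes. Over the 26938 tiles measured in all 6 libraries, the mean level was 37.4, 37.8 and 37.4% in the Type7 libraries, against 34.2, 31.6 and 32.7% in the Type5b libraries. Every Type7 library lay above every Type5b library, and the means were 37.5 ± 0.236% in Type7 and 32.8 ± 1.31% in Type5b (SD, n = 3 each), a difference of 4.70 points. The two-sided exact permutation p was 0.1, which is the smallest that 3 against 3 libraries can give, and 0.1 after Benjamini-Hochberg adjustment over 5 such measures. Tiles above 80%, called fully methylated here, made up 18.6 ± 0.199% of tiles in Type7 libraries and 11.3 ± 1.497% in Type5b libraries. Partly methylated tiles, at 20 to 80%, made up 35.9 ± 0.227% in Type7 and 40.7 ± 0.648% in Type5b. Tiles below 20%, called not yet methylated, made up 45.5 ± 0.188% in Type7 and 48.0 ± 0.876% in Type5b. The groups did not overlap in any of the 3 shares, each with an exact permutation p of 0.1. The difference was concentrated in few tiles: its median over tiles was 0.902 points, 73.3% of tiles lay within 10 points, and 2655 tiles were higher by more than 20 points against 539 that were lower by as much.

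**Figure D1:**
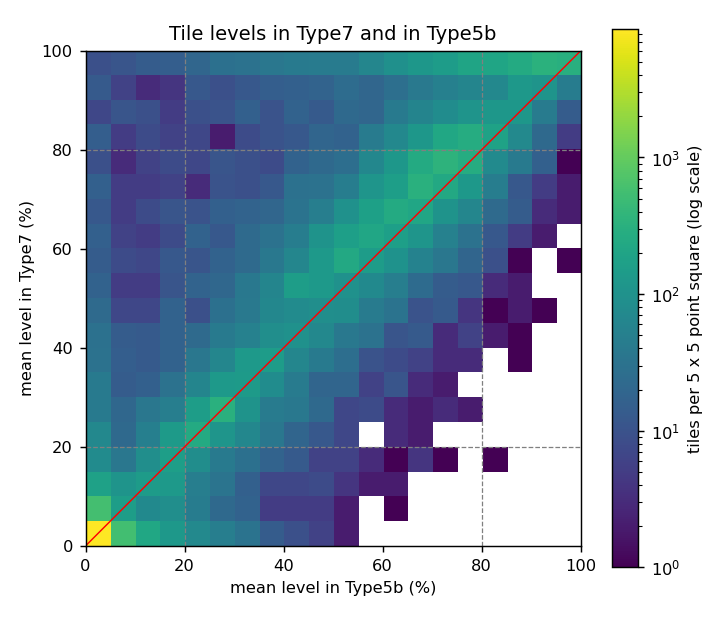
Mean level of each 100-bp tile in Type7 (vertical axis, %) against Type5b (horizontal axis, %) for the 26938 tiles measured in all 6 libraries; colour gives the number of tiles per square on a log scale, dashed lines the class limits at 20 and 80%, and the red line equal levels. Tiles spread widely above the line, and the corner of tiles below 20% in Type7 and above 80% in Type5b holds 1 tile.

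Most tiles that were fully methylated in Type7 were already partly or fully methylated in Type5b. By the mean of the 3 libraries of a stage, 4563 tiles were fully methylated in Type7; of these 2395 (52.5%) were partly, 2027 (44.4%) fully and 141 (3.09%) not yet methylated in Type5b. Read in single Type5b libraries, the same tiles were fully methylated in 56.7, 44.0 and 49.3%, partly in 39.3, 48.0 and 43.5%, and not yet methylated in 4.01, 8.02 and 7.23%. Without Type5b replicate 1 the share not yet methylated by stage mean was 5.68%. Since the tiles were chosen on their Type7 level, the same choice was made on 2 Type7 libraries and read in the third and in Type5b. Tiles above 80% in 2 Type7 libraries were above 80% in 86.0 to 87.4% of cases in the third Type7 library and in 53.1 to 53.4% in Type5b, and their mean level was 91.1 to 91.5% in the third Type7 library against 74.4 to 74.8% in Type5b.

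**Figure D2:**
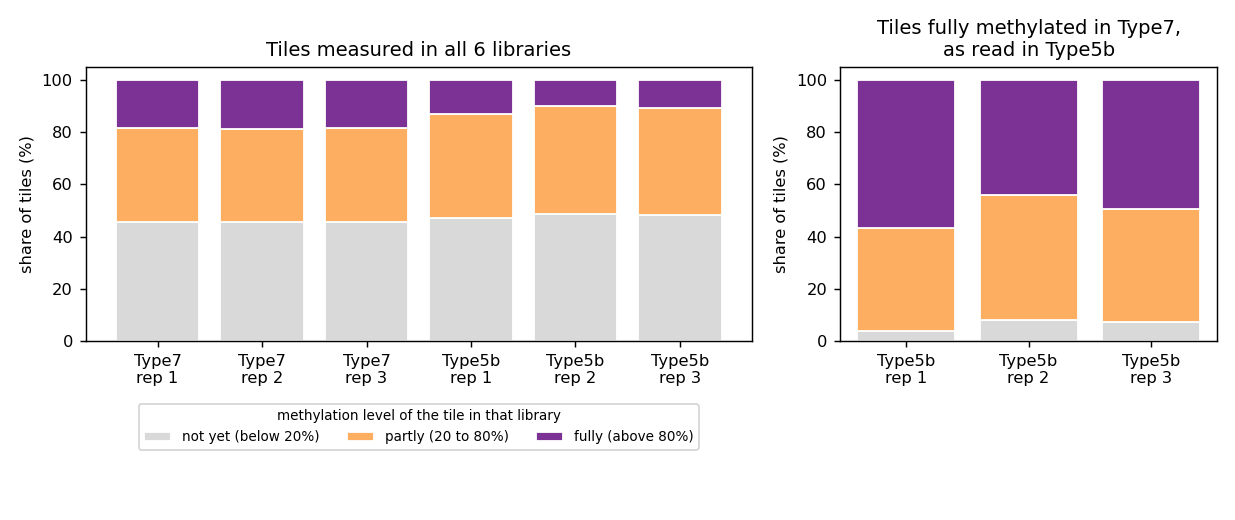
Left, share of the tiles measured in all 6 libraries (%) that were not yet, partly or fully methylated in each Type7 and Type5b library; right, the same classes in each Type5b library for the 4563 tiles fully methylated in Type7. The fully methylated share is 18.4 to 18.8% in Type7 libraries and 10.1 to 13.01% in Type5b libraries.

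The tiles that were completed had mixed sites in Type5b. In the 2395 tiles that went on to full methylation from a partly methylated state, the mean level was 90.4 ± 0.232% in Type7 and 64.4 ± 5.01% in Type5b (SD, n = 3 each). Of their sites with at least 10 reads, 60.4% were above 90% in Type7 against 24.96% in Type5b, and 0.332% were below 10% in Type7 against 9.61% in Type5b. The 141 tiles that were fully methylated in Type7 and not yet methylated in Type5b had a mean of 91.1 ± 2.12% in Type7 and 9.01 ± 4.24% in Type5b, and 78.4% of their sites were below 10% in Type5b.

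A larger group of tiles was partly methylated in both stages. These 9145 tiles, 33.9% of those measured in all 6 libraries, averaged 54.9 ± 0.693% in Type7 and 51.2 ± 2.20% in Type5b. Their sites were themselves intermediate: 86.6% of sites in Type7 and 84.6% in Type5b lay between 10 and 90%. The tile of chromosome 10, 73064801 to 73064900 (coordinates here and below are mm9), had 49.1, 47.9 and 53.3% in Type7 against 52.7, 49.2 and 48.4% in Type5b. The tile of chromosome 10, 27543201 to 27543300, had 53.7, 53.7 and 50.6% in Type7 against 49.5, 46.6 and 48.1% in Type5b, with at least 2397 reads in every library. The libraries of the stages overlap in the first of these tiles and not in the second, and neither passed the test (quasi-binomial adjusted p of 1 and 0.881). The 9145 tiles already averaged 40.4% in Type1 oocytes, which come from primordial follicles. This was not particular to them. In Type1, tiles fully methylated in both stages averaged 41.6%, and tiles partly methylated in Type5b and fully in Type7 averaged 35.6%. Tiles not yet methylated in both averaged 2.86%.

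**Figure D3:**
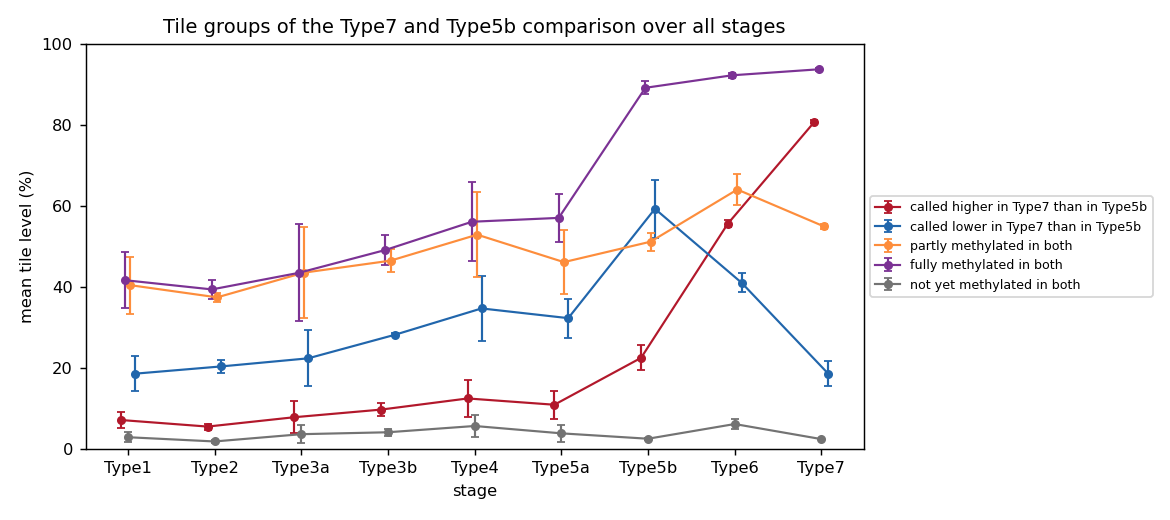
Mean level (%) of groups of tiles in each of the 9 stages, points for the mean over the libraries of a stage and bars for the SD (n = 3 to 5 libraries). Tiles called higher in Type7 stand at 80.8% in Type7, 55.6% in Type6 and 22.5% in Type5b. Tiles partly methylated in both stand at 54.9% in Type7, 64.0% in Type6 and 51.2% in Type5b. In Type1 they already stand at 40.4%, and tiles fully methylated in both at 41.6%.

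Of 55845 tiles measured in at least 2 libraries of each stage, 1670 passed the test (2.99% of tiles tested), of which 1621 were higher in Type7 (2.9%) and 49 were lower (0.0877%). Passing needed a stage difference of 20 points or more and an adjusted p under 0.05. The test fitted methylated reads out of all reads with a quasi-binomial model over all 31 libraries, with Benjamini-Hochberg adjustment; 8598 tiles (15.4%) had an unadjusted p under 0.05. These counts rest on the spread estimated over all stages. A quasi-binomial fit on the 6 libraries alone called 0 tiles in either direction, with 3214 higher and 364 lower at an unadjusted p under 0.05 and 20 points, and edgeR on methylated and unmethylated reads called 6 higher and 0 lower, with 2789 and 208 at an unadjusted p under 0.05; limma on logit levels called 931 higher and 11 lower, 784 and 5 of them shared. With 1 library left out and fewer tiles tested (38420 to 45463), 622 tiles were higher without Type7 replicate 1, and 557 of these were among the 1621. The number was 813 without Type7 replicate 2 (726 among the 1621), 971 without Type5b replicate 2 (919 among the 1621) and 1009 without Type5b replicate 3 (914 among the 1621). Among the tiles measured in all 6 libraries, every Type7 library lay above every Type5b library in 3463 (12.9%) and below in 473 (1.76%). The share expected by chance alone at 3 against 3 libraries is 10%, both directions together.

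The higher tiles were not yet or partly methylated in Type5b, which the rise needed for a call requires. By stage mean, 1056 of the 1621 (65.1%) were fully methylated in Type7. In Type5b, 914 (56.4%) were not yet methylated and 707 (43.6%) partly methylated. Of all 55845 tested tiles, 30769 were not yet, 19569 partly and 5507 fully methylated in Type5b. The share not yet methylated in Type5b thus does not set the higher tiles apart. Their mean level was 7.11 ± 2.04% in Type1, 10.9 ± 3.47% in Type5a (n = 5), 22.5 ± 3.10% in Type5b, 55.6 ± 0.865% in Type6, the other stage of antral follicles, and 80.8 ± 0.410% in Type7 (SD, n = 3 unless given). The 3 Type6 libraries, 2 of which had an X measure above 0, lay close together, at 55.0 to 56.6%. In Type6 the median tile had 60.4% of its final difference, but single tiles varied widely, with 23.6% of tiles under 25% and 35.3% of tiles over 75% of it. When tiles were called on 2 Type7 and 2 Type5b libraries and read in the pair left out, over all 9 such pairs, the difference was 43.4 ± 6.37 points in the left-out pair against 62.0 ± 2.60 points in the pairs that made the call, and 87.7% of tiles kept their direction.

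Several tiles were close to full methylation in Type7 and had few or no methylated reads in Type5b. On chromosome 8, 108042801 to 108042900, the level was 100, 95.2 and 99.2% in Type7 against 0, 0.17 and 0% in Type5b (adjusted p = 1.93e-08). On chromosome 5, 140288901 to 140289000, the level was 94.1, 100 and 100% in Type7, and in Type5b 0 of 414 reads were methylated, which allows a level of up to 0.725% (adjusted p = 5.26e-08). On chromosome 10, 80270001 to 80270100, it was 96.5, 100 and 93.7% in Type7 against 6.56, 0.233 and 0% in Type5b (adjusted p = 9.41e-08). The stages did not overlap in any of these tiles. Type6 libraries had 74.8, 84.6 and 70.2% at the chromosome 5 tile and 35.3, 38.9 and 8.13% at the chromosome 10 tile, between the other stages. At the chromosome 8 tile 2 Type6 libraries measured it, with 56.7 and 0%, so that one of them was at the level of Type5b. In all, 33 tiles were above 80% in every Type7 library and below 20% in every Type5b library. Limits at 0 are 3 divided by the number of reads, an upper bound at 95% confidence. Such limits cover counting error only, since PCR copies are not separate molecules.

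The higher tiles lay in clusters. Of tested tiles that began at most 200 bp after a higher tile, 59.7% were also higher, against 0.988% after any other tile. Fragments of 200 to 700 bp can hold several tiles, so tiles this close may be read from the same molecules. The part of this in the clusters was not tested. At distances beyond 2 kb and up to 20000 bp, the share was 13.1% after a higher tile, against 3.76% after any other. Runs of 2 or more successive higher tiles numbered 286 and held 667 tiles, and the longest held 6. One run of 6, on chromosome 4 from 43970201 to 43970900, averaged 91.7 and 96.9% in the 2 Type7 libraries that measured it, against 0.775, 0 and 0% in Type5b. A second run of 6, on chromosome 11 from 74710901 to 74711900, averaged 99.9, 99.3 and 100% in Type7 against 39.8, 8.67 and 30.1% in Type5b. Another run of 6, on chromosome 2 from 130460701 to 130461900, averaged 83.3, 77.1 and 100% in Type7 against 4.05, 7.65 and 7.04% in Type5b. The last run of 6, on chromosome 8 from 126081501 to 126085000, was looser and started higher, with 84.9, 91.9 and 99.5% in Type7 against 38.3, 68.6 and 46.0% in Type5b. The first of these runs spans the Glipr2 promoter and the second the Tsr1 promoter.

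In points, the gain was larger where CpG sites were sparse. In proportion to their Type5b level, the sparsest and the densest tiles gained about as much, and tiles of intermediate density gained less. The gain was 5.74 points from 39.3% in Type5b at 10 to 19 listed sites per kb. It was 3.79 points from 34.3% at 20 to 39 sites and 3.03 points from 23.4% at 40 to 59 sites. Most of the densest tiles were not yet methylated by stage mean, 82.1% of them in Type7 and 84.1% in Type5b. In tiles with 0 to 9 listed sites per kb the mean level was 48.3, 49.0 and 48.9% in Type7 against 41.9, 39.4 and 39.5% in Type5b. In tiles with 60 or more sites per kb it was 12.8, 12.9 and 12.8% in Type7 against 11.3, 9.995 and 10.7% in Type5b. The densest tiles thus stood 35.9 ± 0.341 points below the sparsest in Type7 and 29.6 ± 0.901 points below them in Type5b, with no overlap between the stages (difference -6.31 points, exact permutation p = 0.1, the smallest possible; adjusted p = 0.1). Fully methylated tiles were 30.6% of the sparsest tiles in Type7 against 14.4% in Type5b, and 5.06% of the densest in Type7 against 2.00% in Type5b. Of the tiles tested, 4.19% of the sparsest and 1.59% of the densest were called higher. Among the tiles fully methylated in Type7, 31.9% of the 91 densest had been fully methylated in Type5b, against 44.5% of the 1247 sparsest.

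**Figure D4:**
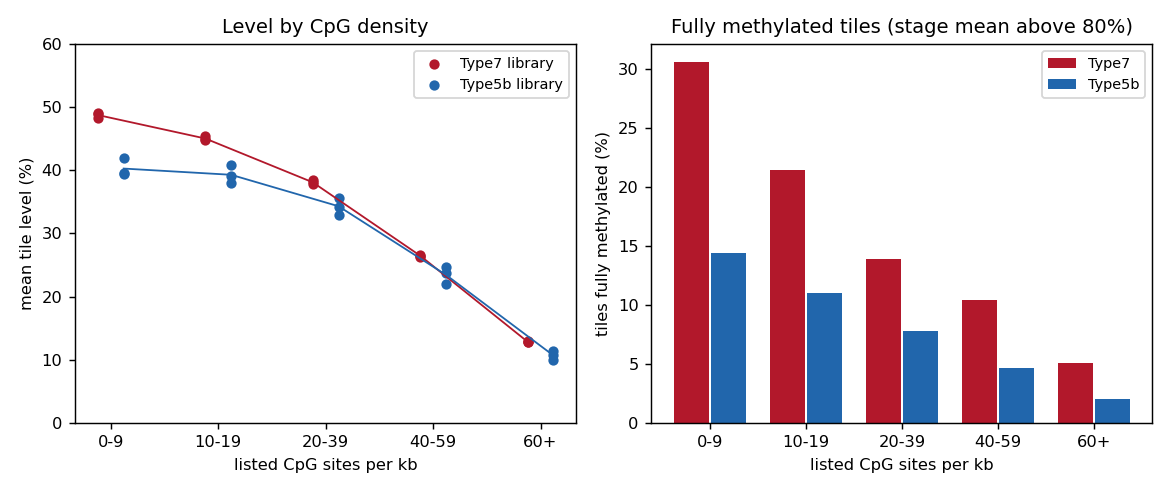
Left, mean tile level (%) by the number of listed CpG sites per kb, 1 point per Type7 or Type5b library and a line through the stage means; right, share of tiles (%) whose stage mean was above 80%. In the sparsest tiles the Type7 libraries stand at 48.3 to 49.0% and the Type5b libraries at 39.4 to 41.9%.

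X-linked and autosomal tiles both stood higher in Type7. The level of X-linked tiles was 52.0 ± 0.817% in Type7 and 46.0 ± 1.38% in Type5b, and that of autosomal tiles was 36.6 ± 0.204% in Type7 and 32.0 ± 1.31% in Type5b (SD, n = 3 each). The X minus autosome difference was 15.4 ± 0.635 points in Type7 and 13.98 ± 0.285 points in Type5b (exact permutation p = 0.1, the smallest possible). On X, 63 of 2748 tested tiles (2.29%) were higher, and the autosome with the smallest share was chromosome 14 (1.502%), that with the greatest chromosome 17 (4.88%).

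Promoter tiles that were fully methylated in Type7 had lower levels in Type5b than other tiles of that kind, in 3 of 3 libraries. RefSeq promoter windows of 8309 genes were placed by matching their sequence to the listed sites, and 5040 tested tiles lay in the windows of 3393 genes. Of these tiles, 125 (2.48%) were higher and 0 lower, beside 2.94% and 49 among the 50805 other tiles. Promoter tiles were rarely methylated: by stage mean, 136 were fully methylated in Type7 and 24 in Type5b. Of those 136, 22 (16.2%) were fully, 83 (61.0%) partly and 31 (22.8%) not yet methylated in Type5b, while of 10339 other tiles fully methylated in Type7, 46.6% were fully and 4.67% not yet methylated in Type5b. Read in the Type5b libraries, the promoter tiles had a mean level of 45.4 ± 9.67% and the other tiles, weighted to the same CpG density, 72.0 ± 3.93% (SD, n = 3 libraries). The difference of -26.6 ± 5.78 points was negative in 3 of 3 libraries (exact sign-flip permutation p = 0.25, the smallest that 3 libraries allow).

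In all, 102 genes had a higher promoter tile and 29 had 2 or more. The 10 of these with the largest mean difference, given here, averaged 73.1 to 100% in Type7 and 0 to 19.3% in Type5b. Sgpp2, which encodes a sphingosine-1-phosphate phosphatase, had 100, 82.8 and 100% in Type7 in the tile of chromosome 1, 78306701 to 78306800, and 0 of 429 methylated reads in the 3 Type5b libraries, which allows up to 0.699% (adjusted p = 1.26e-05). Its other tile had 100, 81.1 and 100% in Type7 and 0 of 319 reads in Type5b, which allows up to 0.940%. Type6 libraries had 9.91, 18.8 and 41.2% in that other tile, so that the 3 stages did not overlap. The 10 sites of both tiles are those in capitals in the first sequence above. They are 10 of the 34 CpG sites of that window and all lie before the start, so these values do not cover the sites nearer to it. Tsr1, a factor of small ribosomal subunit maturation, had 100 and 100% in 2 Type7 libraries against 53.2, 4.05 and 5.13% in Type5b in the tile at 74711401 to 74711500 of chromosome 11 (adjusted p = 0.00408), so that the Type5b libraries themselves differed widely. Its 17 marked sites all lie before the start and in the run of 6 tiles above.

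Abl1, a tyrosine kinase gene, had 100, 100 and 100% in Type7 against 15.6 and 1.23% in 2 Type5b libraries at 31615301 to 31615400 of chromosome 2 (adjusted p = 0.000629). Rangrf, whose product binds the GTPase Ran, had 96.7, 96.7 and 87.1% in Type7 against 1.91 and 19.01% in 2 Type5b libraries at 68787301 to 68787400 of chromosome 11 (adjusted p = 3.78e-05). Tmem91, a transmembrane protein gene, had 100 and 100% in Type7 against 4.87, 13.1 and 29.1% in Type5b at 26460101 to 26460200 of chromosome 7 (adjusted p = 2.78e-06). In each of these the stages did not overlap, and the Type6 levels were 29.7 to 95.3% for Abl1, 18.3 to 78.3% for Rangrf and 90.6 to 100% for Tmem91. Nkain2, whose product binds the sodium pump, differed in its timing: it had 60.1, 70.02 and 93.8% in Type7, 1.23, 0 and 0% in Type5b and 0, 1.28 and 0% in Type6 at 32609701 to 32609800 of chromosome 10 (adjusted p = 1.93e-08). Type7 libraries were thus high, and both other stages near 0. Glipr2 and the predicted genes Gm39193, Gm46646 and Gm13205 complete the 10. In the Gm39193 window, 2 tiles had 84.7 to 100% in Type7 and 0% in 2 Type5b libraries, while another tile had 0, 100 and 0% in Type7 and 72.6 and 27.8% in Type5b and did not pass the test (adjusted p = 0.5).

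**Figure D5:**
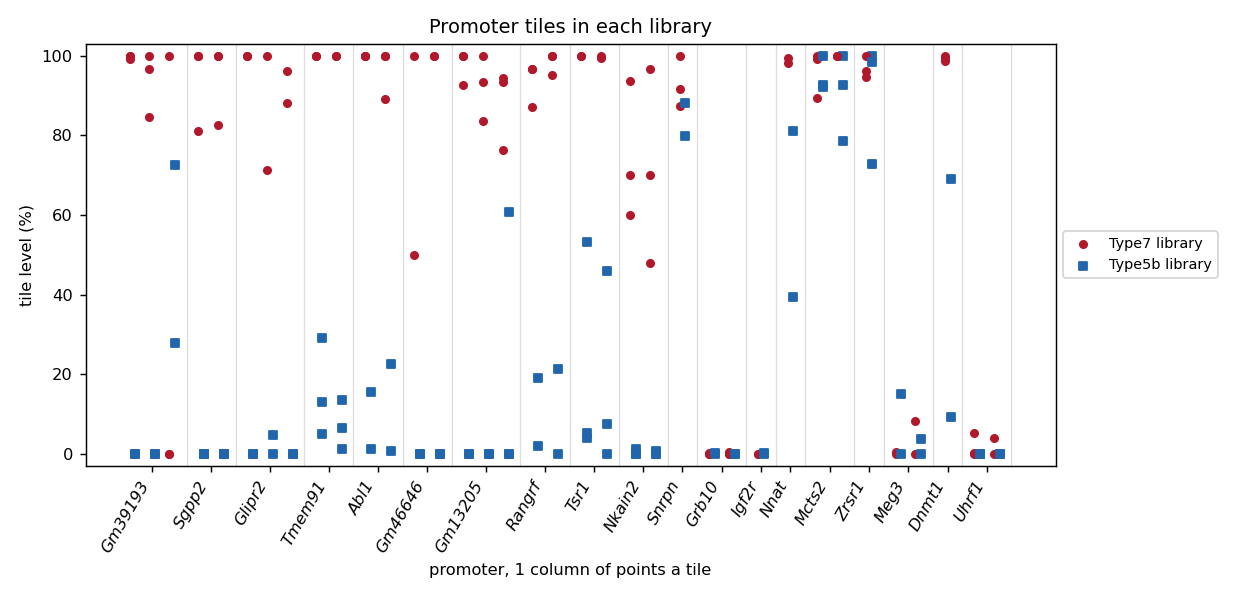
Level (%) of each tile in the named promoter windows, 1 column of points per tile with Type7 libraries as circles and Type5b libraries as squares. For the first 10 genes, chosen for their difference, the circles of the called tiles lie at 48.0 to 100% and most squares near 0; Snrpn, Mcts2 and Zrsr1 are high in both stages.

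Of the 7 imprinted promoters measured here, Snrpn, Mcts2 and Zrsr1 were already fully methylated in Type5b by stage mean, and Nnat was partly methylated. Of 18 imprinted genes listed, 7 had a tested promoter tile, and 0 of them had a called tile; since 2.48% of all tested promoter tiles were called, this count does not set them apart. Snrpn, which encodes a spliceosome protein, had 100, 91.7 and 87.5% in Type7 against 79.8 and 88.1% in 2 Type5b libraries at 67150001 to 67150100 of chromosome 7 (adjusted p = 0.867). Its 4 sites are in capitals in the last sequence above, and the same tile stood at 0% in Type1. Mcts2, an imprinted retrogene, had 99.1, 89.4 and 100% in Type7 against 92.3, 92.7 and 100% in Type5b at 152512601 to 152512700 of chromosome 2 (adjusted p = 1). Zrsr1, an imprinted splicing-factor retrogene, had 94.8, 100 and 96.3% in Type7 against 100, 72.9 and 98.4% in Type5b at 22872001 to 22872100 of chromosome 11 (adjusted p = 1). The stages overlap in all of these. Nnat, which encodes the small membrane protein neuronatin, had 98.3 and 99.5% in Type7 against 81.1 and 39.5% in Type5b at 157385801 to 157385900 of chromosome 2; the stages did not overlap, but the difference of 38.6 points did not pass the test (adjusted p = 0.163). The start windows of Grb10 and Igf2r were at 0 to 0.476% in both stages; the region of Igf2r that oocytes methylate is known to lie within an intron. Meg3, whose control region is methylated by sperm, had 0 to 8.18% in Type7 and 0 to 15% in Type5b.

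Among genes of the methylation machinery, looked up after the data had been seen, Dnmt1 and Uhrf1 had a tested promoter tile. Dnmt1, which encodes the maintenance methyltransferase, had 99.6, 99.9 and 98.6% in Type7 against 9.29 and 69.1% in 2 Type5b libraries at 20757001 to 20757100 of chromosome 9 (adjusted p = 0.00812). The stages did not overlap, and the 2 Type5b libraries lay far apart; Type6 libraries had 17.5, 49.0 and 54.7% and Type1 averaged 2.81%. The 10 sites of this tile are the capitals at the end of the third sequence above, around the annotated start of that window. Oocytes are known to start Dnmt1 transcripts upstream of the start that somatic cells use. In the printed window the capitals come after atgccagcgcgaacagct, the bases that encode the first amino acids of the somatic DNMT1 protein. The tile thus lies within the gene, downstream of that start codon. Which start was in use was not tested, so the tile is not shown to lie in an active promoter. Uhrf1, which encodes the protein that brings DNMT1 to replicated DNA, had 5.14, 0.12 and 0% in Type7 and 0 of 1266 reads in Type5b at 56443501 to 56443600 of chromosome 17, which allows up to 0.237% (adjusted p = 0.296).

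Methylation that was full in Type5b was kept in Type7. Of the 2314 tiles fully methylated in Type5b, 2027 (87.6%) were fully, 286 (12.4%) partly and 1 (0.0432%) not yet methylated in Type7. Since levels are noisy, a choice on high levels alone gives lower values elsewhere; tiles above 80% in 2 Type5b libraries were read in the third Type5b library and in Type7. They were above 80% in 87.2 ± 0.396% of cases in Type7 and in 70.7 ± 6.13% in the third Type5b library, and below 20% in 0.136 ± 0.104% in Type7 and in 1.31 ± 0.540% in the third Type5b library (mean ± SD over the 3 choices of the library left out). The share above 80% was higher in Type7 than in the third Type5b library for each of the 3 choices. Of 1196 tiles above 80% in every Type5b library, 994 were above 80% in every Type7 library, 14 were below 80% in every Type7 library and 0 were below 50% in every one.

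The 49 lower tiles were few. Tiles called lower anew on 2 libraries of each stage did not hold up in the libraries that had not made the call. With 1 library left out, 12 tiles were lower without Type7 replicate 1, and 7 of these were among the 49. The number was 31 without Type7 replicate 2 (17 among the 49), 25 without Type5b replicate 1 (10 among the 49) and 59 without Type5b replicate 2 (29 among the 49). Called on 2 Type7 and 2 Type5b libraries and read in the pair left out, lower tiles differed by -3.16 ± 6.88 points, against -44.0 ± 4.30 points in the pairs that made the call, over 9 pairs that called 7 to 44 tiles each. The 49 tiles called on all libraries had a mean level of 18.5 ± 3.12% in Type7, 41.0 ± 2.38% in Type6 and 59.3 ± 7.21% in Type5b. It was 32.3 ± 4.79% in Type5a (n = 5) and 18.5 ± 4.38% in Type1. In Type5b, 38 of the 49 were only partly methylated and 11 fully. Among lower tiles with at least 10 reads in each of the 6 libraries and no overlap between stages, the largest fall was on chromosome 2, 16690601 to 16690700, with 3.60, 1.65 and 11.1% in Type7 against 66.7, 41.9 and 83.6% in Type5b (adjusted p = 0.00037). On chromosome 3, 15028501 to 15028600, the level was 9.28, 22.8 and 14.1% in Type7 against 90.1, 52.5 and 54.3% in Type5b, and the 45.5% of Type1 lay between the stages (adjusted p = 0.0191). The tile of chromosome 14, 51177701 to 51177800, was the one called among the 5 deepest of the 14 tiles above: 53.0, 75.5 and 64.8% in Type7 against 89.2, 100 and 90.8% in Type5b (adjusted p = 0.0191). The stages did not overlap in these 3 tiles, and in 2 of them the Type5b libraries lay far apart. Lower tiles formed 2 runs, both of 2 tiles; at that of chromosome 5, 106161101 to 106161300, the mean was 24.2 and 22.2% in 2 Type7 libraries, 95.2, 100 and 100% in Type5b, and 100, 75.9 and 0% in Type6, so that the Type6 libraries covered the whole range.

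Tiles that stayed unmethylated made up the largest class. Both stages were below 20% by their mean in 11391 tiles (42.3%), at 2.39 ± 0.0497% in Type7 and 2.48 ± 0.245% in Type5b. In 2455 tiles no library of either stage had a methylated read; the median over these tiles was 1224 reads, which allows a level of up to 0.245%. Tiles below 20% in 2 Type5b libraries were below 20% in 92.5 ± 0.797% of cases in Type7 and in 94.2 ± 1.21% in the third Type5b library, and above 80% in 1.47 ± 0.369% in Type7 against 0.325 ± 0.118% in the third Type5b library.

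Type7 libraries resembled each other more than Type5b libraries did. With reads thinned to 10 per site, the mean absolute difference of a tile between 2 libraries was 9.15 ± 0.126 points in Type7 and 11.5 ± 0.490 points in Type5b (SD over 3 pairs, which share libraries), and 13.7% of tiles in Type7 and 19.1% in Type5b differed by over 20 points. Without thinning, and with fewer or more sites per tile, this order was the same.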

How the data were processed

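Libraries were grouped by title (3 Type7, 3 Type5b, and 25 of the other stages). The members, gene lists and tests were chosen with earlier results of these data known. Per the labels' protocols, DNA of lysed oocytes was cut with MspI, ligated to premethylated adaptors, bisulfite converted and amplified, and fragments of 200 to 700 bp were kept. The submitters' processing notes name BSMAP 2.89 and the mouse build mm9. How reads were trimmed and sites called is not given in the sources used here. The deposited files give 2 read counts for each CpG site, total and methylated, and no site under 3 reads. The deposited fraction equals methylated over all reads to within 0.0005 and was not otherwise used. Reads carry no molecular identifiers, a C-to-T strain variant looks unmethylated, and unconverted cytosine looks methylated.

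Sites with at least 5 reads on both strands together were summed into 100-bp tiles with at least 3 such sites. Tiles measured in at least 2 libraries of each stage entered a quasi-binomial fit of stage over all 31 libraries, with a dispersion of at least 1, shrunk across tiles by the empirical Bayes rule of limma, an F test and Benjamini-Hochberg adjustment (Python 3.11.15, numpy 2.4.6, scipy 1.17.1). Calls needed an adjusted p under 0.05 and 20 points. The test was tried on simulated data. CpG density is the number of sites found by at least 1 library in the 1 kb centred on a tile. Single values per library were compared with exact permutation tests.

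Named tiles were, among called tiles with at least 10 reads in each of the 6 libraries and no overlap between stages, the 8 with the largest rise and the 8 with the largest fall; the 5 runs per direction with most tiles; the 5 tiles nearest 50%; the 5 deepest tiles of each strict set; and the 10 promoters with 2 or more called tiles and the largest mean difference. The text prints a share of them. Tiles below 80% in every Type7 library, the methylation machinery and Gm34655 were added after values had been seen.

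No mm9 annotation was used. RefSeq promoter windows (GRCm38.p6, 300 bp) were placed by sequence: at least 4 listed sites had to match the window's CpG sites in context and spacing, at one place of the same chromosome and with a shift shared by a neighbour. Of 32851 windows, 9329 were placed. This step was added after the files' local sequence had been seen, although the design had left genes unplaced under another build. Same-numbered libraries of the 2 stages did not deviate together (correlations of 0.00555 to 0.0109), so numbers were not taken as pairs. In any pair of libraries of a stage, counts were identical at no more than 0.785% of sites covered by 20 or more reads, and no library was treated as a duplicate. Alternatives used R 4.3.3, limma 3.58.1 and edgeR 4.0.16.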

Additional observations from a re-analysis of the deposited data

How the results depend on the processing

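The mean level (differences of 3.96 to 7.70 points over 18 alternatives) and the densest minus poorest level (-7.34 to -5.40 over 15) kept their direction; no exact p could pass. The count of higher tiles stayed within 1.5 times of the main one in 10 of 23 alternatives and that of lower tiles in 7 of 23; the others follow. With 3 reads per site 75 tiles were lower; with 10 reads, 985 were higher and 28 lower. At least 2 sites per tile gave 2471 higher and 85 lower, and at least 5 sites 692 and 16. At most 10 reads per site gave 31 lower, a minimum of 10 points 87 lower, tiles in all 3 libraries per stage 644 higher and 14 lower, and a fit without the 9 libraries with an X measure above 0, 141 lower. limma called 931 higher and 11 lower; edgeR called 6 and 0, with 2789 and 208 at an unadjusted p under 0.05. The fit on the 6 libraries called 0 and 0 (3214 and 364 unadjusted), as did the same fit with the replicate block (3201 and 512 unadjusted); beside it, the fit without the block also gave 0 and 0. The cause was not tested; the 6-library fit has fewer residual degrees of freedom by construction. Leaving out 1 library gave 622 to 1251 higher and 12 to 59 lower.

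Class limits moved the shares of tiles fully methylated in Type7 by construction: with 10 and 90%, 29.2% had been fully and 69.4% partly methylated in Type5b, and with 30 and 70%, 61.7% and 33.7%. Leaving out 1 library gave 42.6 to 50.4% fully, 46.5 to 53.7% partly and 3.14 to 5.68% not yet methylated. The kept share in Type7 was 86.8% with 3 reads per site, 88.6% with at least 2 sites, 90.3 and 92.8% in 200-bp and 500-bp tiles, 84.1% with at most 10 reads, and 84.9 and 90.7% with limits of 90 and 70%. It was 75.1 to 88.2% when 1 library was left out, lowest where the choice rested on 1 Type5b library fewer. Its excess over the third Type5b library, 16.5 points, was 23.1 in 500-bp tiles, 24.2 with a limit of 90%, and 16.3 to 21.0 when 1 library was left out. The spread of Type7 minus that of Type5b, -2.40 points, was -3.12 and -1.23 with at least 2 and 5 sites and -3.15 in 500-bp tiles.

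In the replicate block, paired differences were 4.70 points for the mean level and -6.31 points for the densest minus poorest level, each with an exact sign-flip p of 0.25, the smallest possible. Each Type7 library correlated best with the Type5b library of its own number, but at no more than 0.0109. Leaving out sites at CCGG, an alternative chosen after seeing the data, moved no result by more than its limit. Type7 replicate 3, the shallowest library, had a median of 10 reads per site.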

Other observations

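The tiles partly methylated in both stages averaged 54.9% in Type7, 64.0% in Type6 and 51.2% in Type5b, and the 3 Type6 libraries ran from 61.3 to 68.4%. In 2 of these 3 libraries CpG-dense X-linked tiles stood above autosomal ones, by 1.00 and 1.26 points. Tiles not yet methylated in both stages stood at 2.39% in Type7, 6.12% in Type6 and 2.48% in Type5b. DNA of cells with an inactive X raises the X measure. Whether the Type6 libraries held such DNA, and whether it had a part in their levels, was not tested. Tiles not yet methylated in Type7 and partly methylated in Type5b (615 tiles) stood at 10.1% in Type7, 29.997% in Type6 and 29.8% in Type5b. They were chosen on the levels of both stages, and their median SD between libraries was 22.9 points in Type5b. Tiles partly methylated in 2 Type5b libraries were not yet methylated in 4.22 ± 0.160% of cases in Type7. In the third Type5b library this share was 6.53 ± 1.14% (mean ± SD over the 3 choices of the library left out). Whether the 615 tiles fell by more than such spread was not tested. Tiles fully methylated in Type7 and not yet methylated in Type5b stood at 91.1% in Type7, 59.98% in Type6 and 9.01% in Type5b, and at 4.97% in Type1.

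The promoter of the predicted gene Gm34655 was not fully methylated in Type7 by stage mean and was in Type5b, and was chosen after its values were seen. Its tile of chromosome 9, 121186801 to 121186900, had 0 and 95.9% in 2 Type7 libraries, 65.2, 80 and 100% in Type5b, and 0 and 15.2% in 2 Type6 libraries (quasi-binomial adjusted p = 0.278). One Type7 library thus lay below all Type5b libraries and the other within their range.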
